A study of Rattus norvegicus with 10 samples.

Results

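The genes described here are 7 genes of the cholesterol pathway that are driven by the transcription factor Srebf2: Hmgcs1, Idi1, Fdft1, Sqle, Lss, Cyp51 and Insig1. They were chosen by gene symbol from a table of 32623 rat genes, in which each symbol had 1 protein-coding row, and all 7 were among the 15169 genes tested. Although the set was named for synthesis and uptake, 6 of the 7 encode enzymes of synthesis, Insig1 encodes a regulator, and none encodes an uptake receptor.

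The study measured poly(A) RNA from the cerebral cortex of adult male Sprague-Dawley rats. In 5 EA libraries the rats had received electroacupuncture, in which a current is passed through needles at acupuncture points of the head and face, and in 5 control libraries the rats had been bound for the same time without it. All rats were anesthetized and perfused with saline before the cortex was removed. The labels number the libraries 1 to 5 within each group but do not state outright that each came from a separate rat, so that the p-values measure the spread between these libraries.

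Cells make cholesterol from acetyl-CoA through mevalonate, isoprenoid units, squalene and lanosterol. When membrane sterol falls, Scap carries the precursor of Srebf2 to the Golgi, where proteases free the active factor, and Insig proteins hold the complex back when sterol is plentiful. The blood-brain barrier keeps plasma lipoproteins out, so the brain makes its own cholesterol, and oligodendrocytes use much of it for myelin. For this reason the study's comparison of EA with control was read together with a second question, whether these genes followed the myelin genes from library to library.

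Since the genes share a regulator, the upstream sequences of Hmgcs1, Idi1 and Insig1, which are the most abundant member, the member with the largest difference and the only regulator, were read from RefSeq. Each run below covers the 250 bases before the annotated start, 5′ to 3′ on the strand of the gene in the assembly GRCr8, in which Hmgcs1 lies at chr2:53382054-53382303 on the plus strand, Idi1 at chr17:66547525-66547774 on the minus strand and Insig1 at chr4:8057770-8058019 on the minus strand. Capitals mark CCAAT, read by NF-Y, GGGCGG, read by Sp1, and the E-box CACGTG, each on either strand, so that CCAAT also appears as ATTGG and GGGCGG as CCGCCC.
Hmgcs1: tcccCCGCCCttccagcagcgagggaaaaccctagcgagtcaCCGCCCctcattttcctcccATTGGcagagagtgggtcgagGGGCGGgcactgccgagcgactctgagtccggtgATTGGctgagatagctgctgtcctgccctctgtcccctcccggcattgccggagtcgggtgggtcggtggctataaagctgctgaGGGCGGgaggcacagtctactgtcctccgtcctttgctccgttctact
Idi1: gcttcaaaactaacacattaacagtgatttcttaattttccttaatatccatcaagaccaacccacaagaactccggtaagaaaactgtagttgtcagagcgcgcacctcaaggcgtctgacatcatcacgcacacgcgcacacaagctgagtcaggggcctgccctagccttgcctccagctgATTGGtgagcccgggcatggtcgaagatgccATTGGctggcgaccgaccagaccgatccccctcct
Insig1: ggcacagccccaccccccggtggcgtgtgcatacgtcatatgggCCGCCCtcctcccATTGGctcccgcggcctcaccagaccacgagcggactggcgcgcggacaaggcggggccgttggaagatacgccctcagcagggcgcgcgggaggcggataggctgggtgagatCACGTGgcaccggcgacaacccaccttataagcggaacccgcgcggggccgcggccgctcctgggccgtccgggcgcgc

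In Hmgcs1 the CCAAT matches began at -188 and -133 from the start, and in Idi1 they began at -66 and -35. The Idi1 sequence held no GGGCGG, whereas Hmgcs1 held 4, and the E-box of Insig1 began at -79. None of these stretches overlapped. The RefSeq table had promoters for 5 of the 7 genes, and not for Sqle or Fdft1. Over windows of 300 bases that also take in the first 50 after the start, CCAAT was found in 4 of these 5 genes and in 37.5% of 33469 promoters, and GGGCGG was found in 4 of 5 and in 33.1%. CACGTG was found in 1 of 5 and in 6.42% of promoters. The letters TCACNCCAC, searched as a sterol element, were found in 0 of 5 and in 1.12% of promoters. Only this form was searched, and at a share of 1.12% a count of 0 in 5 promoters decides nothing. These matches are descriptions of the letters and are not measured binding sites.

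The libraries were similar in depth. Deposited counts summed to 55223193 to 61707722 per control library and to 47843590 to 60941939 per EA library, the lowest being EA 3. In every library this sum exceeded the number of valid reads listed by the study, so a count is not 1 read, although the tests treat it as such. The least abundant member, Idi1, had 1302 to 1863 counts per library. Neuronal markers (summed FPKM, fragments per kilobase scaled to the mapped reads, 1549 to 2144) and astrocyte markers (1239 to 1759) were high, and choroid plexus markers summed to under 1 FPKM in every library. EA 2 and EA 5 stood apart in structural RNA, with 187.6 and 297.7 FPKM of Rn7sl1 against 4.70 to 11.98 in the other libraries. The part of the summed FPKM that came from mitochondrially encoded genes was lowest in control 4 (38.2%) and highest in EA 3 (46.7%).

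Levels of the 7 genes were spread widely. The order was the same in every library except between Insig1 and Fdft1 and between Lss and Idi1. Over 10 libraries the mean FPKM, which is scaled by gene length, was 92.8 ± 5.24 (SD) for Hmgcs1 and 62.2 ± 3.94 for Cyp51, and Hmgcs1 was the higher in 10 of 10. Insig1 (25.3 ± 1.67) and Fdft1 (24.2 ± 0.96) followed, and these neighbours were not separated beyond their spread, Insig1 being higher in 7 of 10. Sqle (17.6 ± 1.26) lay below Fdft1 in all 10 libraries. Lss (9.85 ± 1.12) and Idi1 (9.39 ± 1.46) were lowest, and Lss was above Idi1 in 7 of 10. This order differed by group, since Lss was above Idi1 in every control but below it in EA 1, EA 2 and EA 3. The mean FPKM was 9.95 for Lss and 8.38 for Idi1 in control, and 9.74 and 10.4 in EA. By mean FPKM Hmgcs1 ranked at place 651 and Idi1 at place 6653 of the 15169 genes tested.

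The first enzyme in the pathway among these genes is Hmgcs1, the cytosolic HMG-CoA synthase, at chr2:52431601-52445055 on the plus strand (Rnor_6.0, the build of the deposited table). Its FPKM was 96.9, 87.3, 94.8, 83.6 and 86.4 in controls 1 to 5 and 96.7, 93.5, 93.4, 95.5 and 99.7 in EA 1 to 5. The EA libraries were close to each other and all lay above the control median, but only EA 5 exceeded every control. The log2 fold change of EA against control was 0.11 (SE 0.05, 95% interval -0.00 to 0.23, edgeR adjusted p = 0.363), which did not pass the test.

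Idi1, which converts isopentenyl diphosphate to dimethylallyl diphosphate, lies at chr17:57976268-57984036 on the minus strand. Its FPKM was 9.60, 7.79, 8.68, 8.61 and 7.23 in controls 1 to 5 and 10.9, 10.5, 11.9, 8.69 and 10.1 in EA 1 to 5. EA 1, 2, 3 and 5 were above every control, while EA 4 lay among the controls. With means of 8.38 ± 0.91 in control and 10.4 ± 1.18 in EA (SD, n = 5 each), the log2 fold change was 0.34 (SE 0.10, 95% interval 0.11 to 0.56), or 1.26-fold. This was the largest difference of the 7 genes and still did not pass the test over all genes (unadjusted p = 0.00697, adjusted p = 0.222 with edgeR, 0.0608 with DESeq2). Idi1 overlaps 100 bases of Wdr37 on the opposite strand, and Wdr37 had a log2 fold change of 0.04 (SE 0.06, edgeR adjusted p = 0.793).

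Fdft1, the squalene synthase, commits the pathway to sterols and lies at chr15:46339249-46367302 on the minus strand. Its FPKM was 24.0, 24.1, 26.3, 23.6 and 24.6 in controls 1 to 5 and 24.7, 24.2, 22.5, 23.8 and 24.4 in EA 1 to 5. It was the steadiest of the 7, with a coefficient of variation of 3.96% against 15.5% for Idi1. The groups overlapped, although by FPKM EA 3 lay below every control and control 3 above every EA library. By CPM control 4 was the lowest library instead of EA 3. For Fdft1 the log2 fold change was -0.01 (SE 0.04, 95% interval -0.11 to 0.08, edgeR adjusted p = 0.932).

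Sqle, the squalene epoxidase that adds oxygen to squalene, lies at chr7:99609191-99624732 on the plus strand. Its FPKM was 18.8, 19.0, 16.1, 17.0 and 15.1 in controls 1 to 5 and 17.8, 17.5, 17.9, 19.0 and 18.0 in EA 1 to 5. All EA libraries lay above the control median, but the controls held both the highest and the lowest value. EA against control gave a log2 fold change of 0.09 (SE 0.07, 95% interval -0.05 to 0.23, edgeR adjusted p = 0.577).

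Lss, the lanosterol synthase that closes the sterol rings, lies at chr20:12842884-12870497 on the minus strand. Its FPKM was 9.93, 10.6, 9.97, 10.4 and 8.86 in controls 1 to 5 and 9.08, 8.60, 9.21, 9.39 and 12.4 in EA 1 to 5. Of the EA libraries 4 lay below the control median and EA 5 lay above all other libraries. The log2 fold change was -0.01 (SE 0.09, 95% interval -0.20 to 0.18, edgeR adjusted p = 0.980), and without EA 5 it was -0.10.

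Cyp51, the demethylase that acts on lanosterol, lies at chr4:27175243-27194018 on the plus strand. Its FPKM was 66.1, 60.5, 64.8, 56.7 and 59.6 in controls 1 to 5 and 62.1, 59.0, 68.2, 66.4 and 58.6 in EA 1 to 5. EA 3 was the highest of all. By FPKM EA 4 was just above the control range and the other EA libraries fell within it. By CPM EA 4 fell within the control range too. For EA against control the log2 fold change was 0.05 (SE 0.07, 95% interval -0.09 to 0.20, edgeR adjusted p = 0.775).

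Insig1, which holds Scap in the endoplasmic reticulum and is itself induced by Srebf2, lies at chr4:342302-350515 on the plus strand. Its FPKM was 26.0, 27.3, 26.9, 22.7 and 23.9 in controls 1 to 5 and 27.7, 24.9, 24.0, 25.3 and 24.0 in EA 1 to 5. Only EA 1 exceeded the control range. Its log2 fold change was 0.01 (SE 0.06, 95% interval -0.13 to 0.15, edgeR adjusted p = 0.967).

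**Figure D1:**
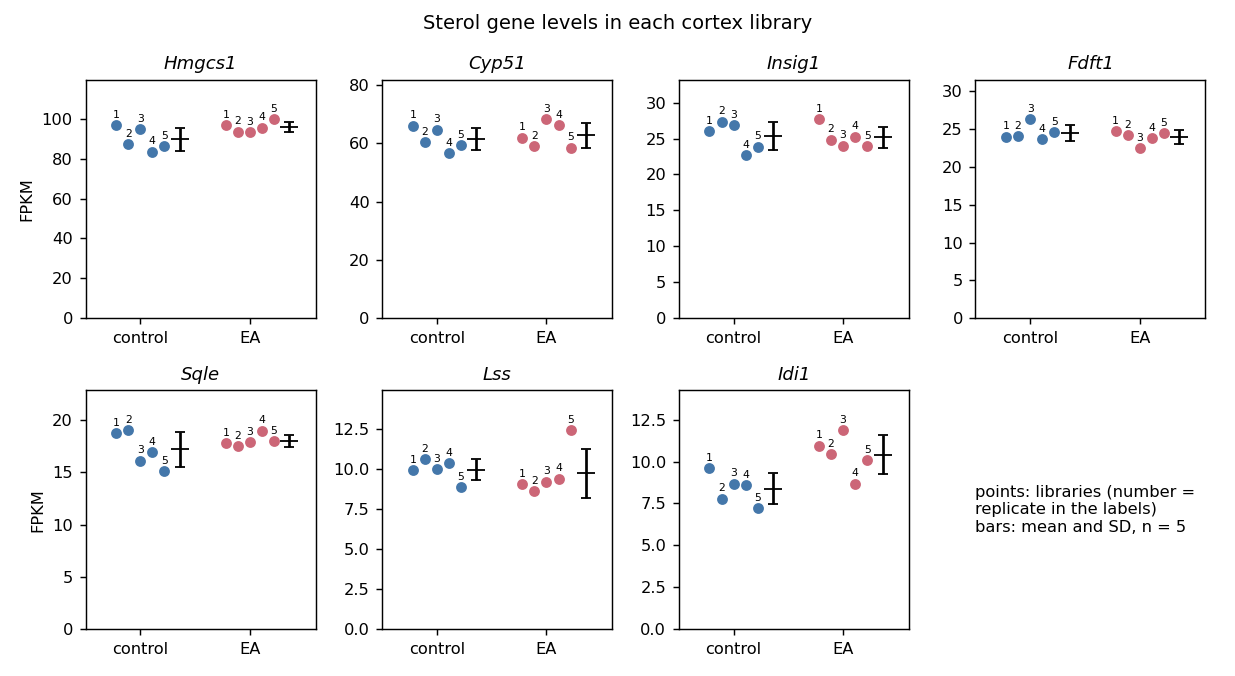
FPKM (vertical axes, from 0) of the 7 sterol genes in 5 control and 5 EA libraries; points are libraries numbered as in the labels, and bars are the mean and SD (n = 5). The groups overlap in all 7 panels, and in Idi1 only EA 4 (8.69) falls within the control range of 7.23 to 9.60.

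A gene counted as called where the adjusted p was under 0.05 and the fold change exceeded 1.2. By this rule edgeR called none of the 7 genes, and 0.0198% of the 15169 tested. DESeq2 also called 0 of the 7, against 1.36% of the genes it tested. At an unadjusted p under 0.05 lay 1 of the 7, Idi1, which was higher in EA, beside 13.7% of all genes (6.59% higher and 7.15% lower). By CPM (counts scaled to library size) the EA and control libraries were separated in 0 of the 7, while 3.04% of all genes had groups that did not overlap (1.42% with EA higher and 1.62% with EA lower). The fold change was above 0 in 5 of the 7 genes and in 49.5% of all genes, and its median was 0.05 against -0.00. This median was not steady, being 0.0195 without EA 3, 0.0213 without control 4, 0.0869 without EA 5 and 0.0935 without control 1, and over all settings it ran from 0.0043 with the mitochondrial share as a covariate to 0.116 without EA 2 and EA 5. By the intervals given above, a change of 1.2-fold either way lay outside the 95% interval for Hmgcs1, Sqle, Insig1, Fdft1, Lss and Cyp51, and a rise of that size lay inside it for Idi1.

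Among the 14 other enzymes of cholesterol synthesis, 7 had a fold change above 0 and 7 below, the median was 0.00, and 0 were called or had an unadjusted p under 0.05. Msmo1, which removes methyl groups after Cyp51, had a log2 fold change of 0.13 (SE 0.06, edgeR adjusted p = 0.378), Sc5d, a desaturase near the end of the pathway, had 0.09 (SE 0.05, adjusted p = 0.507), and Tm7sf2, a sterol reductase, had -0.17 (SE 0.10, adjusted p = 0.499).

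Of 11 regulators of the sterol response 10 were tested, and 8 of these had a fold change below 0, against 50.5% of all genes, with a median of -0.08 and 0 called. Srebf2 itself had an FPKM of 39.4, 45.3, 45.2, 43.8 and 42.7 in controls 1 to 5 and 41.9, 40.2, 35.4, 40.4 and 42.2 in EA 1 to 5. EA 3 was the lowest library and the groups overlapped (log2 fold change -0.09, SE 0.05, edgeR adjusted p = 0.432). Srebf1, the family member better known for fatty acid genes, had a log2 fold change of -0.18 (SE 0.06, unadjusted p = 0.0120, adjusted p = 0.247). Those of Scap, the sterol-sensing escort, and of Mbtps1, the first protease in the activation, were -0.12 (SE 0.07, adjusted p = 0.439) and -0.11 (SE 0.06, adjusted p = 0.432).

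**Figure D2:**
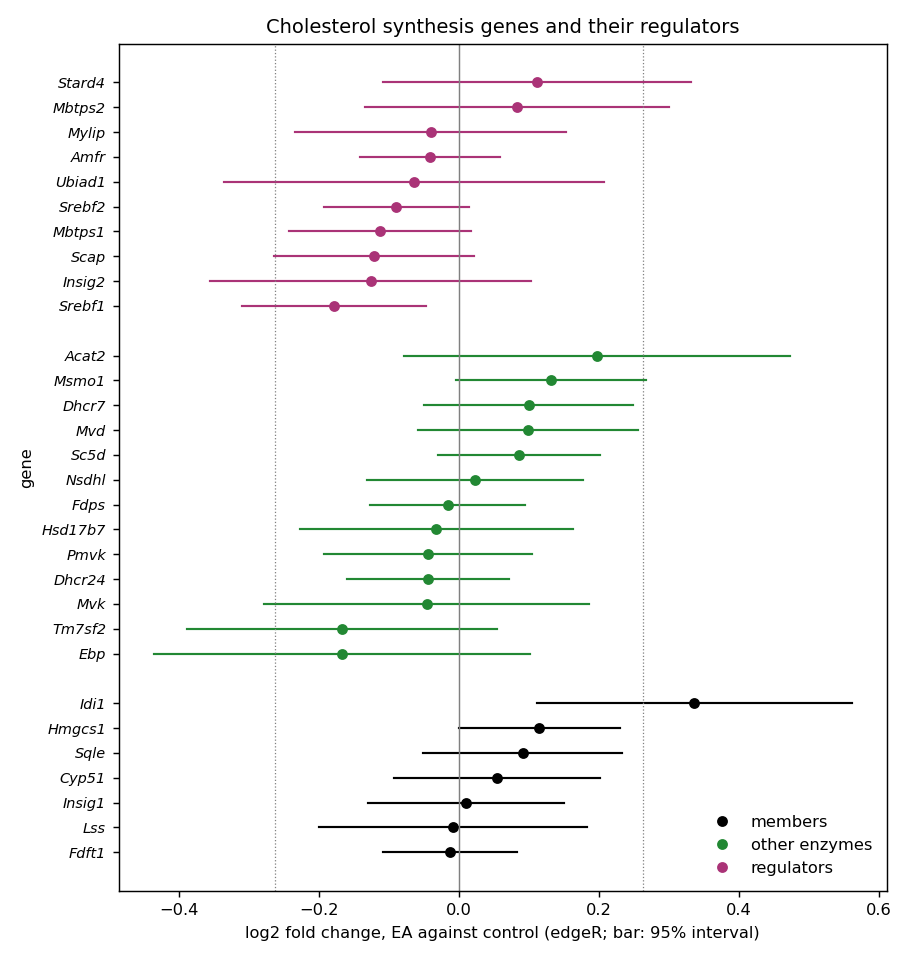
Log2 fold change of EA against control (horizontal axis, edgeR) with its 95% interval for the 7 sterol genes (black), 13 of the 14 other synthesis enzymes (green) and the 10 tested regulators (purple); dotted lines mark a 1.2-fold change. The intervals of Idi1, above 0, and of Srebf1, below 0, leave out 0, and none of the genes shown passed the test over all genes.

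In the list of uptake, efflux, storage and removal, 12 of 17 genes had a fold change below 0, against 50.5% of all genes. Of the list 0 were called and the median was -0.06. Lower in EA at an unadjusted p under 0.05 were 3 of the 17, against 7.15% of all genes. At an unadjusted p under 0.05, and all lower in EA, lay Nr1h2, the liver X receptor beta (log2 fold change -0.22, SE 0.07, edgeR adjusted p = 0.213), the receptor Lrp1 (-0.16, SE 0.06, adjusted p = 0.258) and the lysosomal sterol carrier Npc2 (-0.13, SE 0.05, adjusted p = 0.261). Npc2 had groups that did not overlap by CPM, but by FPKM EA 4 (78.2) lay above control 1 (77.3). Apoe, the main apolipoprotein of astrocytes, was at -0.14 (SE 0.07, adjusted p = 0.386). In fatty acid synthesis 5 of 12 genes were above 0 and 0 were called, with Scd at 0.23 (SE 0.10, unadjusted p = 0.0306, adjusted p = 0.311) and Fasn at -0.09 (SE 0.05, adjusted p = 0.399).

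Myelin genes were read as a list of 14, all of which were tested. In EA 13 of the 14 had a fold change below 0, against 50.5% of all genes, with a median of -0.14, but 0 were called. At an unadjusted p under 0.05 and lower in EA were 4 (Mbp, Mobp, Myrf and Cnp), against 7.15% of all genes. The 14 genes were measured in the same libraries and are not 14 separate observations. Mbp, the basic protein of myelin, had an FPKM of 969.6, 770.6, 739.0, 743.9 and 627.2 in controls 1 to 5 and 693.0, 568.5, 595.5, 539.9 and 670.7 in EA 1 to 5. EA 1 and EA 5 reached above the lowest control, and the log2 fold change was -0.31 (SE 0.11, edgeR adjusted p = 0.262). In bulk tissue fewer oligodendrocytes and less myelin RNA per cell cannot be told apart.

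To follow the genes by library, a myelin score was taken as the mean of the log2 CPM of the 14 myelin genes, each centred over the 10 libraries. It ran from 0.26 in control 1 to -0.22 in EA 4 and -0.42 in EA 3. A sterol score built in the same way from the 7 genes covered a smaller range, from 0.10 in EA 3 and 0.08 in control 1 to -0.12 in control 4 and -0.14 in control 5. The library with the lowest myelin score thus had the highest sterol score. By CPM EA 3 was the highest library in Idi1 and Cyp51. In Hmgcs1, Sqle, Insig1, Fdft1 and Lss it lay within the control range, so the sterol genes did not all peak there.

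Over all 10 libraries the scores had a Pearson r of -0.02 and a Spearman rho of 0.15, and with group means removed r was 0.30. Without the pair of libraries farthest from the median myelin score, EA 3 and EA 4, r was 0.78 over the remaining 8, without EA 3 alone it was 0.52, and without EA 4 alone it was -0.02. The value near 0 in the full set thus rested on EA 3, the shallowest library and the one with the highest mitochondrial share. These r values describe scores of genes in shared libraries.

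For each sterol gene 1 correlation with the myelin score was computed, 7 in all, with two-sided permutation p from 100000 pairings and no adjustment over the 7. Cyp51 had r = -0.42 (p = 0.233, rho = -0.22, p = 0.534) and Idi1 r = -0.24 (p = 0.498, rho = -0.07, p = 0.864 by permutation). Hmgcs1 had r = -0.02 (p = 0.947, rho = 0.12, p = 0.758) and Sqle r = -0.01 (p = 0.971, rho = 0.18, p = 0.633 by permutation). None of these differed from 0 by this test.

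The other members had positive values. Insig1 had r = 0.30 (permutation p = 0.401, rho = 0.45, p = 0.192), Lss r = 0.36 (p = 0.298, rho = 0.56, p = 0.0969) and Fdft1 r = 0.37 (p = 0.288, rho = 0.30, p = 0.407). With EA 3 and EA 4 left out, r was 0.82 for Sqle, 0.59 for Cyp51, 0.55 for Insig1, 0.52 for Hmgcs1, 0.49 for Lss, 0.41 for Idi1 and 0.06 for Fdft1. Fdft1 was thus the member whose value dropped, while the other 6 moved up, and Cyp51, Idi1, Hmgcs1 and Sqle turned from below 0 to above it.

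The slope on the myelin score, fitted in edgeR with the group in the model, gives the log2 change of a gene per log2 unit of the score, so that a gene moving in step with myelin has a slope of 1. It was 0.32 (95% interval -0.22 to 0.86) for Lss, 0.20 (-0.20 to 0.61) for Insig1, 0.15 (-0.18 to 0.48) for Hmgcs1 and 0.12 (-0.30 to 0.55) for Sqle. It was 0.10 (-0.18 to 0.38) for Fdft1, 0.07 (-0.60 to 0.74) for Idi1 and -0.21 (-0.63 to 0.21) for Cyp51. All 7 intervals held 0, as did those of 90.2% of all genes. All 7 also lay below 1, but so did 70.8% of all genes and 2 of the 14 myelin genes, Cnp and Aspa, so this does not set the sterol genes apart.

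None of the 7 slopes was called (adjusted p 0.707 to 0.966), where 0.0198% of all genes were called. The called genes, among them Mal and Opalin, are part of the score itself. At an unadjusted p under 0.05 lay 0 of the 7, against 9.76% of all genes (4.59% positive and 5.16% negative). The median slope was 0.12, against 1.11 for the myelin list, which the score fixes, and -0.00 for all genes. Of the other 14 enzymes 5 had a positive slope, and the 2 with an unadjusted p under 0.05, Acat2 and Tm7sf2, had negative ones. Srebf2 had a slope of 0.19 (SE 0.13, edgeR adjusted p = 0.667). Markers of other cell types also leaned with the score, though 0 of their slopes were called in either list. A positive slope was found in 7 of 8 neuronal markers (median 0.39), against 49.5% of all genes, and a negative one in 7 of 8 astrocyte markers (median -0.55). At an unadjusted p under 0.05 lay 5 of the neuronal slopes, all positive, and 5 of the astrocyte slopes, all negative. Slopes of these markers are given for the full set of libraries only. The part of these cell types in the result was not tested.

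Most slopes depended on EA 3, but that of Fdft1 was 0.10 both with and without it. Other single libraries also mattered. The slope of Lss was 0.02 without EA 5, that of Sqle -0.01 without control 5 and that of Cyp51 -0.34 without control 1. Without EA 4 alone the slopes differed little for Hmgcs1 (0.15), Insig1 (0.21), Fdft1 (0.09), Lss (0.30) and Cyp51 (-0.20). Those of Sqle and Idi1 were then 0.17 and -0.07. Without EA 3 alone they were 0.35 for Hmgcs1, 0.35 for Sqle, 0.36 for Insig1, 0.56 for Lss, 0.08 for Cyp51, 0.10 for Fdft1 and 0.91 (SE 0.28, unadjusted p = 0.00813, edgeR adjusted p = 0.543) for Idi1. Without both libraries, a choice made after seeing the data, the slope was 0.85 (SE 0.26) for Sqle, 0.87 (SE 0.38) for Idi1, 0.74 (SE 0.49) for Lss, 0.57 (SE 0.34) for Insig1, 0.53 (SE 0.25) for Hmgcs1, 0.49 (SE 0.27) for Cyp51 and 0.04 (SE 0.25) for Fdft1, all from edgeR. In these fits Sqle had an unadjusted p of 0.00970 and Idi1 of 0.0486. The adjusted p of all 7 was 0.778 to 0.980, and no gene of the table was called in those 8 libraries.

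**Figure D3:**
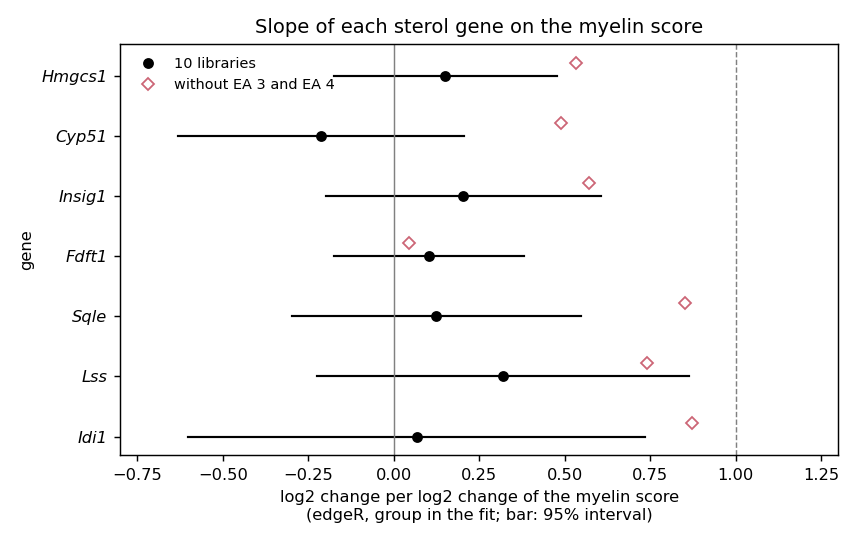
Slope of each of the 7 sterol genes on the myelin score (horizontal axis, log2 change per log2 change of the score, edgeR with the group in the fit); black points with 95% intervals use 10 libraries and open diamonds leave out EA 3 and EA 4. The dashed line marks 1, which 70.8% of all genes also lay below by their intervals, and 6 of the 7 diamonds lie to the right of their black point.

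The mitochondrial share moved with several sterol genes, which was seen after the data were examined. Across 10 libraries the sterol score had r = 0.75 and rho = 0.84 with the share, r = 0.65 with group means removed, and r = 0.55 without control 4 and EA 3, the libraries farthest from its median. Of the 7 genes, Cyp51 (r = 0.79, rho = 0.77), Hmgcs1 (r = 0.77, rho = 0.85) and Idi1 (r = 0.75, rho = 0.72) were highest, and 1.11%, 1.29% and 1.87% of all genes tested had an r at least as high. Sqle had r = 0.50, Insig1 0.23, Fdft1 -0.01 and Lss -0.09. The myelin score had r = -0.38 with the share, which became 0.17 without control 4 and EA 3.

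The share was 38.2 to 45.1% in controls and 41.7 to 46.7% in EA, and every EA library lay above every control but control 1. In a fit with both, the share and the group thus cannot be fully told apart. With the share as a covariate in edgeR, the log2 fold change of Idi1 was 0.21 (SE 0.10, unadjusted p = 0.0636, adjusted p = 0.481) in place of 0.34. That of Hmgcs1 was then 0.06 and that of Cyp51 was -0.04. The CPM and FPKM values share their denominator with the mitochondrial reads, and why the measures moved together was not tested.

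**Figure D4:**
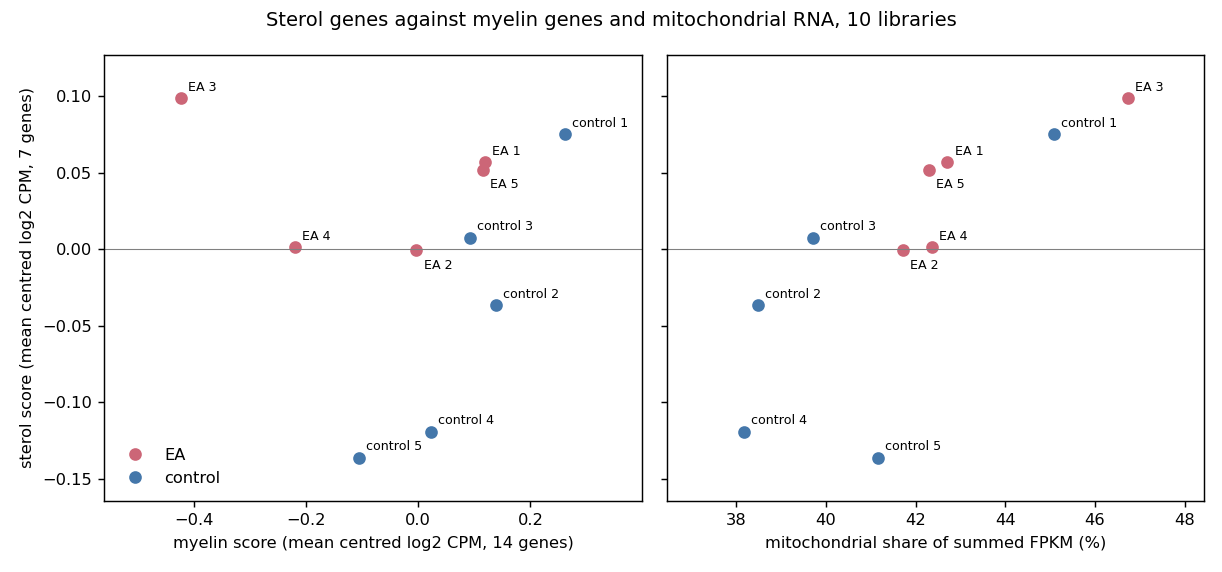
Sterol score of each library (vertical axis, mean centred log2 CPM of 7 genes) against its myelin score (left, mean centred log2 CPM of 14 genes) and against the share of summed FPKM from mitochondrial genes in percent (right); points are the 5 control and 5 EA libraries. EA 3 is at the top of both panels, at the far left for myelin (-0.42) and the far right for the mitochondrial share (46.7%).

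The 7 genes did not move as 1 block. Against the mean of the other 6 over 10 libraries, r was 0.86 for Hmgcs1, 0.58 for Sqle, 0.57 for Cyp51, 0.56 for Idi1, 0.41 for Insig1, 0.10 for Fdft1 and -0.03 for Lss. Control 4 had the lowest CPM in 4 of them (Hmgcs1, Insig1, Fdft1 and Cyp51) and control 5 in Sqle and Idi1. The highest value fell in EA 5 for Hmgcs1 and Lss, in EA 3 for Idi1 and Cyp51, in EA 1 for Insig1, in control 1 for Sqle and in control 3 for Fdft1.

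The genes outside the set whose log2 CPM followed the sterol score most closely over 10 libraries were Herc4 (r = 0.95), Pygl (0.95), Clasp2 (0.92), Eif2ak2 (0.92), Csnk1a1 (0.92), Pds5b (0.92), LOC100909750 (0.91), Birc3 (0.91), Pds5a (0.90) and Nr4a2 (0.90). None of these 10 belongs to the sterol lists. Of 14836 genes ranked in this way, Msmo1 (r = 0.83) stood at place 73, the cholesterol exporter Abca1 (0.82) at place 94 and Sc5d (0.73) at place 301. Srebf2 (-0.54) and Tm7sf2 (-0.71) ran the other way. The median r was 0.12 for the 14 other enzymes, of which 10 were positive, -0.40 for the 10 regulators, of which 2 were positive, -0.04 for the 14 myelin genes and -0.03 for all genes.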

How the data were processed

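Poly(A) RNA of rat cerebral cortex was sequenced as paired reads for 5 control and 5 EA libraries. Per the submitters' processing notes, HISAT2 2.0, StringTie 1.3.0 and Bowtie 0.12.2 were used with Rnor_6.0. The authors estimated FPKM per gene with StringTie and ballgown and deposited it. The counts deposited beside them are whole numbers, and how the authors drew them from the assembly is not given in the sources used here; their sums exceed the valid reads the study lists. An FPKM of 0.0001 in the deposited table stands for 0.

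Genes reaching 0.5 FPKM in 5 or more of the 10 libraries were kept (99.9% of counts). EA was compared with control on these counts with edgeR 4.0.16 (TMM, quasi-likelihood F test), with Benjamini-Hochberg adjustment across every tested gene. Calls needed an adjusted p below 0.05 together with a fold change exceeding 1.2. These thresholds are those of the study, which applied them with DESeq2, so the DESeq2 calls given here are the ones closest to its own. The slope on the myelin score was tested in the same fit with the group, and called at an adjusted p under 0.05. CPM used TMM scaling and a prior count of 2. Standard errors are the log2 fold change divided by the root of F. DESeq2 1.42.0 and limma 3.58.1 (log2 of FPKM plus 0.1 or 1) were alternatives, beside other scalings and filters, covariates, and leaving out libraries. R 4.3.3, Python 3.11.15, numpy 2.4.6, scipy 1.17.1, pandas 2.3.3 and matplotlib 3.10.9 were used. The fits were first tested on simulated counts.

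By rule the text names all 7 genes, Srebf2, Mbp, up to 4 genes of lowest p of each list and the 10 genes most like the sterol score. Some further genes that the rule names are not reported here. Acat2, Aspa, Mal, Opalin and Abca1 were named after their values were seen. Members and lists were chosen with earlier results of these data known. Deviations of libraries with the same number correlated at -0.003 to 0.061, so the numbers were not treated as pairs.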

Additional observations from a re-analysis of the deposited data

Results flagged for a closer look

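Lone values were looked for in 22 groups of 5 libraries, the levels of the 7 sterol genes, Srebf2 and Mbp and both scores in control and EA, and 1 was found, where chance flags about 1 in 20 groups. Lss had an FPKM of 12.4 in EA 5, above 8.60 to 9.39 in the other EA libraries, the gap being 0.793 of the range where 0.71 is the limit for 5. EA 5 is 1 of the 2 libraries rich in Rn7sl1, and the part of that RNA in this value was not tested.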

How the results depend on the processing

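In all 23 settings of EA against control and all 18 of the slope, 0 of the 7 sterol genes were called. The log2 fold change of Idi1 stayed above 0 (0.21 to 0.40, adjusted p 0.0608 to 0.525). Genes called over the whole table for EA against control numbered 3, and 166 with DESeq2, 1 with limma on FPKM plus 0.1, 1 without EA 3 and EA 4, and 1 to 5 leaving out single libraries (1 without control 5 or EA 5, and 5 without EA 3). For the slope, 3 were called, and 0 with a shorter myelin score, 1 without EA 2 and EA 5, 0 without EA 3 and EA 4, and 1 to 4 leaving out single libraries (1 without EA 3). The r of the sterol and myelin scores was 0.78 without EA 3 and EA 4 and ran from -0.20 (without control 1) to 0.52 (without EA 3) leaving out single libraries.

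With the replicate number as a block, 0 genes were called for EA against control and 1 for the slope, no sterol gene among them, and the slope of Sqle turned to -0.0098.

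Fold changes near 0 changed sign. Insig1 was at -0.0105 with library totals, at -0.0103 and -0.0100 with limma at a pseudocount of 0.1 and 1, and at -0.0133 with the mitochondrial share as a covariate. With the myelin score as a covariate Fdft1 was at 0.0037 and Lss at 0.0434. With the mitochondrial share Cyp51 was at -0.045 and Lss at 0.0043. Without EA 3 and EA 4 Fdft1 was at 0.0155, Cyp51 at -0.0203 and Lss at 0.0300. Leaving out single libraries gave -0.0312 to 0.0368 for Insig1, -0.0303 to 0.0178 for Fdft1 and -0.101 to 0.0319 for Lss. Slopes without the group term were -0.0091 for Hmgcs1, -0.0099 for Sqle and -0.325 for Idi1. Without EA 3 and EA 4 they were 0.49 for Cyp51 and -0.0795 for Srebf2. Leaving out single libraries gave slopes of -0.0122 to 0.348 for Sqle, -0.106 to 0.911 for Idi1 and -0.34 to 0.0768 for Cyp51. The cause of these sign changes was not tested. The mitochondrial covariate and the fits without EA 3 and EA 4 were added after seeing the data.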

Other observations

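Other cell types were read through marker lists, and edgeR called 0 of their genes. DESeq2 called 1 cell type marker, Tie1, against 1.36% of all the genes it tested. Oligodendrocyte precursor markers lay lower in EA in 5 of 6 genes (median log2 fold change -0.13), against 50.5% of all genes. Of these, Cspg4 (-0.22), Gpr17 (-0.25) and Olig1 (-0.17) had an unadjusted p under 0.05 in edgeR, with adjusted p of 0.201, 0.257 and 0.303. Over all genes 7.15% were lower in EA at an unadjusted p under 0.05. Endothelial markers lay lower in 6 of 6 (median -0.23) and mural cell markers in 4 of 4 (median -0.21). Microglial markers lay lower in 5 of 6 (median -0.05), where 50.5% of all genes were lower. Tie1, a vessel receptor, was at -0.46 (SE 0.10, adjusted p = 0.172 with edgeR and 0.0036 with DESeq2). The groups of Tie1 did not overlap by CPM or by FPKM, and by CPM this held for 3.04% of all genes. Among 8 neuronal markers 6 lay higher, with Gad2 at 0.19 and Gad1 at 0.15, the enzymes that make GABA (edgeR adjusted p of 0.254 and 0.336). Hemoglobin genes, which mark blood left in the tissue, were low in FPKM and lay lower in EA in 3 of 3 tested (median -1.06).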
